A study of Mus musculus with 12 samples.

Results

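The guanylate-binding proteins (GBPs) are a family of interferon-inducible GTPases. The genes described here are Gbp2, Gbp3, Gbp4, Gbp5, Gbp6, Gbp7, Gbp8 and Gbp9, taken as a fixed list of gene names from the rows of the count table. They are 8 of 54232 gene identifiers in the table, and all 8 were among the 13275 genes that passed the filter on low counts. Another 3 genes of the family, not on that list, had counts, namely Gbp2b, Gbp10 and Gbp11, and they are given beside the 8 where they bear on a value.

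RNA was measured by Smart-seq2, a method that amplifies polyadenylated RNA from few cells, in immune cells sorted from subcutaneous tumours of MC38, a mouse colon adenocarcinoma line. The tumours grew for 8 to 10 days in mice aged 6 to 12 weeks on a C57BL/6N background, and the same line was injected into every mouse. Each library came from 300 sorted cells, either NK cells (CD45+, CD3ε-, NK1.1+) or CD8 T cells (CD45+, CD3ε+, CD8a+). The mice were wild type (WT), TYK2KO (KO), which lack the Janus kinase TYK2 in all tissues, or TYK2KE (KE), whose TYK2 protein carries K923E and has no kinase activity. Both mutations are present in every cell of the host, so they reach the other cells of the tumour as well as the cells sorted, whereas the MC38 cells are the same in all groups. The 6 groups (NK WT, NK KO, NK KE, CD8 WT, CD8 KO and CD8 KE) held 2 libraries each. The sources used here do not say whether the libraries of a group came from separate mice, so p-values measure the spread between these libraries.

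Interferons of type I signal through TYK2 and JAK1, interferon gamma through JAK1 and JAK2, and both induce GBP genes. The encoded proteins assemble on the membranes of intracellular bacteria, parasites and the vacuoles that hold them, and several of them promote inflammasome responses, in which caspases cleave gasdermin D and release interleukins. They are best studied in macrophages, and T cells and NK cells also express them after interferon exposure. The comparisons asked whether the level of each GBP transcript in tumour NK and CD8 T cells depended on TYK2 and on its kinase activity.

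The genes lie in 2 clusters (GRCm38, Ensembl release 93), all protein coding. Gbp5 (ENSMUSG00000105504, chr3:142493978-142522344), Gbp7 (ENSMUSG00000040253, chr3:142530342-142550149), Gbp3 (ENSMUSG00000028268, chr3:142560026-142573209) and Gbp2 (ENSMUSG00000028270, chr3:142620602-142638008) lie in this order on the plus strand of chromosome 3, with Gbp2b between the last pair. Gbp8 (ENSMUSG00000034438, chr5:105014150-105139540), Gbp9 (ENSMUSG00000029298, chr5:105077630-105139539), Gbp4 (ENSMUSG00000079363, chr5:105115767-105139586) and Gbp6 (ENSMUSG00000104713, chr5:105270702-105293698) lie on the minus strand of chromosome 5. The annotated starts of Gbp4, Gbp8 and Gbp9, at 105139586, 105139540 and 105139539, nearly coincide, and these genes share 61, 61 and 60 exonic bases with one another.

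Sequence sharing limits how firmly single genes can be read, because only reads with a single alignment were counted and reads were 50 bases long. Of the 50-base words in the exons of Gbp6, 90.2% occurred in another gene as well, and 66.3% of its exonic bases are also annotated to the gene model Gm43302. For Gbp10, which is no member, these shares were 82.5% and 50.8%. The share of 50-base words found elsewhere was 21.2% for Gbp8, 12.8% for Gbp4, 12.7% for Gbp7, 9.56% for Gbp9, 4.13% for Gbp3, 2.07% for Gbp2 and 0.234% for Gbp5. Values of Gbp6 and Gbp10 are therefore uncertain. Gm43302 and Gm43802, the second of which overlaps 11.3% of the exonic bases of Gbp7, were listed at 0 in all 12 libraries.

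Promoters are shown for the 4 chromosome 3 genes, which differed in their values, from Gbp7, which was lower in mutant CD8 T cells, to Gbp3, whose mutant and WT libraries overlapped, and Gbp5, which was absent from single libraries. The promoter of Gbp2b, which lies between Gbp3 and Gbp2 and is no member, is not printed, and promoters of the chromosome 5 genes were not analysed here. The sequences are RefSeq windows of GRCm38.p6 on the plus strand, read 5′ to 3′, and those of Gbp5 and Gbp2 are shortened at the end so that at most 30 annotated exon bases are left. Capitals mark matches to GAAA-NN-GAAA, the core of the interferon-stimulated response element, which reads TTTC-NN-TTTC where it lies on the minus strand, and to TTC-NNN-GAA, the core of the gamma-activated site, which reads alike on both strands, N being any base and the hyphens only separating its parts.
Gbp7 promoter, chr3:142530086-142530335: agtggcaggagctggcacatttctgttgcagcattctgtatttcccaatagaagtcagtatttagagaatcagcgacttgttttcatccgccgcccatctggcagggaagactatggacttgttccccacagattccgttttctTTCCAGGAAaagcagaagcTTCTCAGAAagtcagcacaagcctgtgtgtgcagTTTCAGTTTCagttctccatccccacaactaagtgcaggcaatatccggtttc
Gbp2 promoter, chr3:142620413-142620631: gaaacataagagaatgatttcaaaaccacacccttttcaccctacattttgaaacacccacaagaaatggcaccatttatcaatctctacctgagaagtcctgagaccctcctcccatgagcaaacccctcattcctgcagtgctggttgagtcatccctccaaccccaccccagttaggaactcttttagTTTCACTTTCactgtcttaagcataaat
Gbp3 promoter, chr3:142559794-142560043: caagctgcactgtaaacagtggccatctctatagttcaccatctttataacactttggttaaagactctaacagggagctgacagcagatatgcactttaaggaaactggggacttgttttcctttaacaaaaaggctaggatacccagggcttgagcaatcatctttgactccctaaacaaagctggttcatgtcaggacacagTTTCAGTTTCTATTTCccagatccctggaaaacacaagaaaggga
Gbp5 promoter, chr3:142496684-142496929: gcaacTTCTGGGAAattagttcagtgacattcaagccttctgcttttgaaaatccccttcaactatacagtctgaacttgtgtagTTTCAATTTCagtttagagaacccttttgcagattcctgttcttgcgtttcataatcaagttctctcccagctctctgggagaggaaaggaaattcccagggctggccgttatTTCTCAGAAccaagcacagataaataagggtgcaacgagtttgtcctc

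Positions in these windows are counted from the RefSeq starts, which differ from the Ensembl gene starts given above. The RefSeq start is 142530336 in Gbp7, 6 bases before the Ensembl start (a difference of -6), 142620663 in Gbp2, 61 bases after it, 142560044 in Gbp3, 18 bases after it, and 142496934 in Gbp5, 2956 bases after it, so that the Gbp5 window lies within the Ensembl gene. All 4 windows held GAAA-NN-GAAA on the minus strand. Its first base lay 53 bases before the RefSeq start in Gbp7, 59 in Gbp2, which is inside the Ensembl transcript, and 165 in Gbp5, and Gbp3 held 2 overlapping matches 45 and 39 bases before it. TTC-NNN-GAA occurred in Gbp7, 106 and 87 bases before the RefSeq start, and in Gbp5, 245 and 52 bases before it. A second RefSeq start of Gbp3 had no match. Over 32851 RefSeq windows of the 250 bases before a start, 2.98% held GAAA-NN-GAAA on either strand, 7.02% held TTC-NNN-GAA and 0.332% held both. A match describes letters in the window and does not show that a factor binds there.

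The 12 libraries had total counts between 10378761 and 14732882, and 3 counts, the floor below which a gene was treated as not detected, corresponded to 0.218 to 0.276 CPM. Floors cover counting error only. CPM are counts divided by the library total after TMM scaling, which corrects for composition, and multiplied by 1e6. The 2 libraries of a group had a Pearson's r of 0.750 to 0.795 in log2 CPM, taken over genes, which are no independent replicates. Tyk2 lay between 46.6 and 119 CPM over the 12 libraries, and its log2 fold change in the mutants over both cell types was 0.16 (SE 0.30, adjusted p 1), so its RNA gave no check of the genotype labels. Cd8a and Cd3e were at least 2825 and 587 CPM in every CD8 library and at most 4.54 and 52.1 CPM in every NK library. Klrb1c, which encodes NK1.1, and Ncr1 were at least 1059 and 837 CPM in every NK library and at most 5.04 and 1.96 CPM in every CD8 library. Ptprc, the gene of CD45, was at 1671 to 3339 CPM throughout.

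A gene is referred to as called where the adjusted p was under 0.05 and the absolute log2 fold change at least 1. NK libraries varied in the transcripts of other cells they held. The summed level of 12 macrophage and monocyte markers was 13703 and 16201 CPM in the NK WT libraries, 7170 CPM in NK KO 1, 26.2 CPM in NK KO 2, 63.6 CPM in NK KE 1 and 417 CPM in NK KE 2. All 12 had more than 3 counts in both WT libraries, against 11 in NK KO 1, 6 in NK KO 2, 7 in NK KE 1 and 10 in NK KE 2. Of the defining markers Cd14 and Adgre1, Cd14 was at 0 in NK KO 2 and NK KE 1, and Adgre1 in NK KE 1. In mutant NK cells all 12 had a negative fitted change (median -4.67), and edgeR called 0 of 12 (smallest adjusted p 0.129), with 10 at an unadjusted p under 0.05 and 2 called by DESeq2. NK markers summed to 2353 and 3019 CPM in WT and to 3580 to 4819 CPM in mutant NK libraries, and T cell markers to 42.1 and 99.7 CPM against 49.9 to 325 CPM. Sums of dendritic cell markers were 205 and 312 CPM in WT and 276 to 350 CPM in mutant NK libraries, those of B cell markers 470 and 587 CPM against 287 to 746 CPM, and those of stromal markers 144 and 262 CPM against 102 to 225 CPM, while neutrophil and tumour epithelial markers summed to at most 6.68 and 51.4 CPM in any NK library. In CD8 libraries the macrophage and monocyte sum was 220 and 236 CPM in WT and 52.8 to 596 CPM in mutants. GBP genes are expressed by macrophages, so these values stand beside every NK result below, and their part in those results was not tested. NK KO 1, which held more of them than NK KO 2, was higher than NK KO 2 in Gbp2, Gbp3, Gbp4 and Gbp5 and lower in Gbp6, Gbp7, Gbp8 and Gbp9. The difference was small in Gbp7 (214 against 217 CPM) and rested on few counts in Gbp6 (37 against 49). In bulk RNA, fewer cells of a type and less RNA per cell cannot be told apart.

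GBP transcripts made up a larger part of the RNA in WT CD8 T cells than in any other group. Their summed level in CD8 T cells was 2094 ± 329 CPM (SD, n = 2) for WT. It was 944 ± 181 CPM in the KO group and 947 ± 37.9 CPM in the KE group, which is 45.1% and 45.2% of the WT level. For NK cells the sums were 1399 ± 194 CPM (WT), 914 ± 269 CPM (KO, 65.4%) and 1144 ± 79.8 CPM (KE, 81.7%). All 4 mutant libraries lay below both WT libraries in each cell type, at most 1200 CPM against at least 1262 CPM in NK cells and at most 1072 CPM against at least 1861 CPM in CD8 T cells.

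In NK cells the 2 clusters held different shares of their WT level. Chromosome 5 genes summed to 706 ± 122 CPM in NK WT, 376 ± 95.6 CPM in NK KO and 430 ± 12.3 CPM in NK KE (53.3% and 61.0% of WT). Chromosome 3 genes summed to 693 ± 72.0 CPM, 538 ± 174 CPM and 713 ± 92.1 CPM (77.7% and 103% of WT), with overlapping libraries. In CD8 T cells the chromosome 5 genes held 45.9% (KO) and 48.5% (KE) of WT and the chromosome 3 genes 43.9% and 40.1%. These sums are descriptions, without a test.

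**Figure D1:**
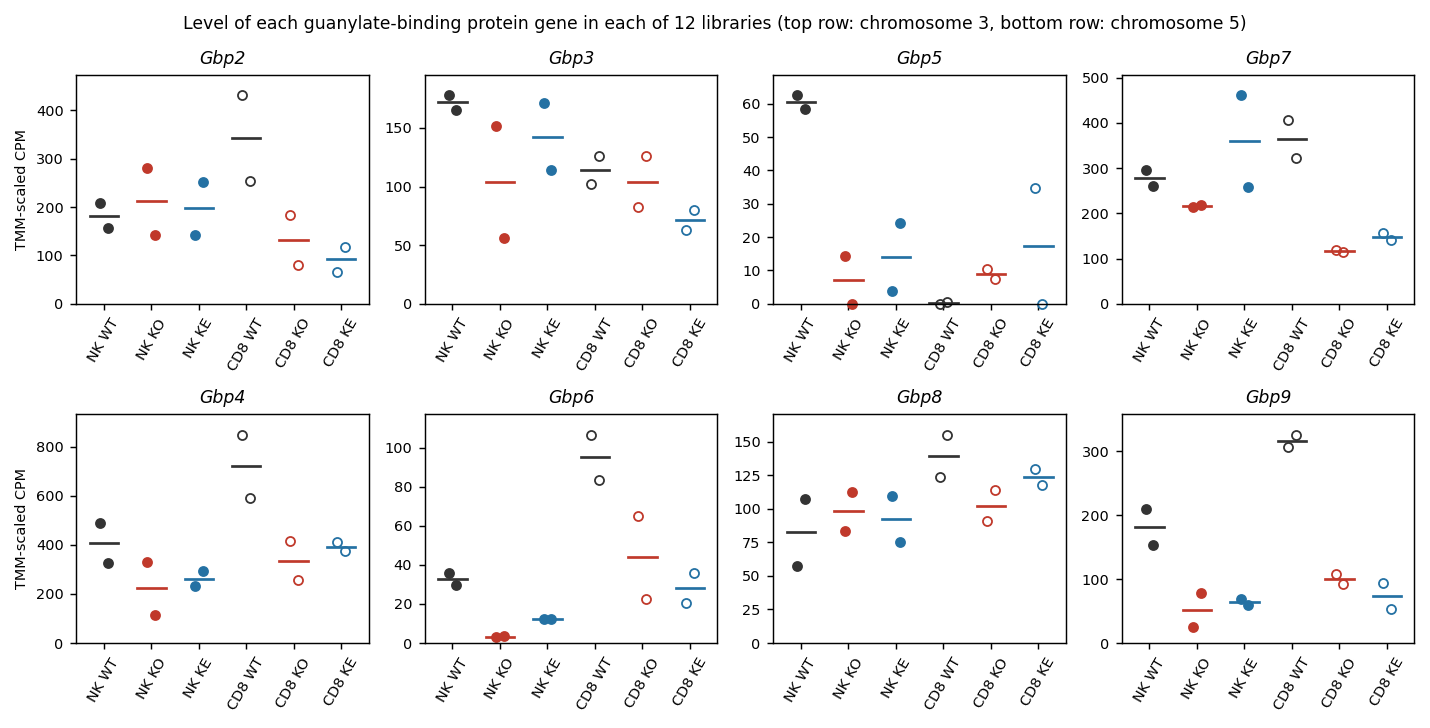
Level of each GBP gene in TMM-scaled CPM (vertical axes from 0, a scale per gene) in the 2 libraries of each group, with filled points for NK cells, open points for CD8 T cells and a bar at the group mean. In CD8 T cells the 4 mutant libraries of Gbp2, Gbp4, Gbp6, Gbp7 and Gbp9 lie below both WT libraries, and in NK cells this holds for Gbp5, Gbp6 and Gbp9.

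Gbp7, which macrophages need for full oxidase activity and for defence against intracellular microbes, was lower in mutant CD8 T cells, while no such call was made in NK cells. In CD8 T cells it reached 407 and 322 CPM in the WT libraries, 118 and 114 CPM in KO, and 156 and 141 CPM in KE. The mutant libraries lay close together and far below WT. By edgeR the log2 fold change of the mean of both mutants against WT was -1.47 (SE 0.24, adjusted p 0.0438 over all genes tested, 36.0% of WT), and it was lower in 4 of 4 mutant libraries. Taken singly, KO gave -1.65 (SE 0.29, adjusted p 0.153) and KE -1.30 (SE 0.29, adjusted p 0.252), neither of which edgeR called. DESeq2 called both.

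Gbp7 in NK cells reached 296 and 261 CPM in WT, 214 and 217 CPM in KO, and 461 and 257 CPM in KE. The KO libraries lay just below WT and 1 KE library far above it. The log2 fold changes were -0.37 (SE 0.29, adjusted p 0.875) for KO, 0.37 (SE 0.29, adjusted p 0.902) for KE and 0.00 (SE 0.25, adjusted p 1) for their mean. An interaction term tested whether the cell types differed, as the mutant effect in NK cells minus that in CD8 T cells. By edgeR it was 1.47 (SE 0.35, p 0.0018, adjusted p 0.527) and did not pass the threshold, and it stayed between 1.21 and 1.65 whichever library was left out. DESeq2 called it.

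The call of Gbp7 in CD8 T cells depended on the setting. It was lost with the edgeR filterByExpr filter (-1.48, adjusted p 0.0537), in a fit of the CD8 libraries alone (-1.48, adjusted p 0.165), with the macrophage and monocyte markers as a covariate (-1.49, adjusted p 0.0863), and without any one of the 10 libraries other than NK KE 1 and NK KE 2, with adjusted p between 0.0296 and 0.497 over all 12 omissions, while the log2 fold change stayed between -1.63 and -1.30.

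Gbp2, which is recruited to vacuoles and bacteria in the cytosol and carries a prenylation motif, was below WT in every mutant CD8 library but overlapped WT in NK cells. Its level in CD8 T cells was 431 and 254 CPM in WT, 183 and 80.9 CPM in KO, and 66.5 and 118 CPM in KE. The 2 WT libraries themselves differed widely. The log2 fold change was -1.63 for both mutants (SE 0.43, adjusted p 0.332), -1.38 for KO (SE 0.52, adjusted p 0.885) and -1.89 for KE (SE 0.53, adjusted p 0.563), none of them called by edgeR. DESeq2 called Gbp2 for KE. The KO value lay between -2.08 and -0.90 when single libraries were left out, without CD8 KO 1 and without CD8 KO 2 respectively. In NK cells the libraries overlapped, at 208 and 157 CPM in WT, 281 and 142 CPM in KO, and 143 and 253 CPM in KE. The pooled log2 fold change there was 0.17 (SE 0.45, adjusted p 1). The interaction was 1.80 (SE 0.63, p 0.0170, adjusted p 0.857), or 2.77 (adjusted p 1) with the marker covariate, and was not called.

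Gbp3, which lies between Gbp7 and Gbp2 in the cluster, was not called. It was at 102 and 126 CPM in WT CD8 T cells, 82.2 and 126 CPM in KO, and 62.9 and 80.1 CPM in KE. In NK cells it was at 178 and 166 CPM in WT, 152 and 56.1 CPM in KO, and 171 and 114 CPM in KE. Both CD8 KE libraries lay below CD8 WT and both NK KO libraries below NK WT, while 1 library each of CD8 KO and NK KE reached the WT range. Pooled log2 fold changes were -0.40 (SE 0.40, adjusted p 0.968) in CD8 T cells and -0.50 (SE 0.40, adjusted p 0.854) in NK cells, the second of which turned to 0.16 (adjusted p 1) with the marker covariate. When single libraries were left out the CD8 value lay between -0.57 (without CD8 KO 2) and -0.24 (without CD8 WT 2), and the NK value between -0.96 (without NK KO 1) and -0.24 (without NK KO 2).

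Gbp5, which promotes inflammasome responses to bacteria and carries a prenylation motif, was the only member with a positive pooled value in CD8 T cells and the only one absent from single libraries. In NK cells it was at 62.5 and 58.3 CPM in WT (752 and 759 counts), 14.2 CPM and 0 in KO, and 3.77 and 24.2 CPM in KE. Its level in CD8 T cells was 0 and 0.436 CPM in WT (0 and 6 counts), 10.6 and 7.49 CPM in KO, and 34.6 CPM and 0 in KE. A count of 0 allows up to 0.223 CPM in NK KO 2, 0.221 CPM in CD8 WT 1 and 0.219 CPM in CD8 KE 2. The mutant libraries thus lay below WT in 4 of 4 cases in NK cells, whereas in CD8 T cells 3 of 4 lay above both WT libraries.

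The fit gave Gbp5 a pooled log2 fold change of -2.60 (SE 2.13, adjusted p 0.866) in NK cells and 5.78 (SE 3.08, adjusted p 0.770) in CD8 T cells. With libraries at 0, these fitted values depend on the prior count and are no bounds. The NK value was -7.37 without NK KO 1, and the CD8 value 0.38 without CD8 KE 1 and 10.31 without CD8 WT 2. The interaction had a p of 0.0500 (adjusted p 0.872) and was not called. The value of KE against WT in CD8 T cells was 6.25 (SE 3.24, adjusted p 0.791) and turned to -4.56 without CD8 KE 1, the library with 415 of the 415 KE counts. With the macrophage and monocyte markers as a covariate the pooled value in NK cells turned to 3.68 (adjusted p 1). The 2 NK WT libraries, with the highest marker sums, were also the 2 libraries with the most Gbp5, while NK KO 1, at 7170 CPM of markers, held 14.2 CPM of Gbp5 and NK KE 2, at 417 CPM, held 24.2 CPM.

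Gbp9, a gene of the chromosome 5 cluster, lay below WT in every mutant library of either cell type. CD8 T cells held 306 and 326 CPM in WT, 108 and 92.2 CPM in KO, and 93.1 and 53.5 CPM in KE. In NK cells it was at 210 and 154 CPM in WT, 24.7 and 78.7 CPM in KO, and 68.7 and 59.0 CPM in KE. No mutant library reached a WT library of its cell type. Over both cell types the log2 fold change of the mutants was -1.77 (SE 0.29, adjusted p 0.0328 by edgeR, 29.3% of WT), lower in 8 of 8 mutant libraries.

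Within a cell type edgeR did not call Gbp9, while DESeq2 called it for KO in NK cells and for KE in CD8 T cells. The pooled values were -1.88 (SE 0.41, adjusted p 0.205) in CD8 T cells and -1.66 (SE 0.41, adjusted p 0.247) in NK cells, and the interaction was 0.22 (SE 0.60, adjusted p 1.00), or -0.96 (adjusted p 1) with the marker covariate. KO and KE gave -1.66 (SE 0.50) and -2.11 (SE 0.51) in CD8 T cells and -1.81 (SE 0.51) and -1.51 (SE 0.50) in NK cells, with adjusted p of 0.885, 0.347, 0.592 and 0.674. The KO value in NK cells lay between -2.89 (without NK KO 2) and -1.225 when single libraries were left out. With the marker covariate the NK values were -3.08 for KO, -2.74 for KE and -2.91 for both (adjusted p 0.969, 0.833 and 0.839). The call over both cell types was lost with the marker covariate (-2.43, adjusted p 0.190) and on leaving out any one of 9 of the 12 libraries, with a log2 fold change between -2.05 and -1.63 and adjusted p between 0.0130 and 0.167. It held without NK KO 1, NK KO 2 or CD8 KE 1.

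Gbp4, which had the highest mean level per length in both WT groups but overlapped Gbp2 there, fell short of a call by edgeR in each comparison with WT. CD8 T cells held 850 and 593 CPM in WT, 414 and 259 CPM in KO, and 410 and 374 CPM in KE, with no overlap. In NK cells it was at 489 and 328 CPM in WT, 332 and 113 CPM in KO, and 231 and 292 CPM in KE, where 1 KO library exceeded 1 WT library. The pooled log2 fold change was -0.99 (SE 0.37, adjusted p 0.725) in CD8 T cells, -0.76 (SE 0.38, adjusted p 0.603) in NK cells and -0.87 (SE 0.27, adjusted p 0.276) over both. The NK value turned to 0.50 (adjusted p 1) with the marker covariate, and it lay between -1.27 (without NK KO 1) and -0.45 (without NK WT 1) when single libraries were left out. Without NK KO 1, Gbp4 was called over both cell types (-1.13, adjusted p 0.0488).

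Gbp6, whose counts rest on few words of its own, was low in NK cells and higher in CD8 T cells. CD8 T cells held 107 and 83.4 CPM in WT, 65.2 and 22.7 CPM in KO, and 20.5 and 35.7 CPM in KE. In NK cells it was at 35.8 and 29.9 CPM in WT, 2.89 and 3.65 CPM in KO, and 12.1 CPM in both KE libraries. Mutant and WT libraries did not overlap in either cell type, and in NK cells KO lay below KE as well. The pooled log2 fold change was -1.43 (SE 0.60, adjusted p 0.725) in CD8 T cells, -2.39 (SE 0.61, adjusted p 0.253) in NK cells and -1.91 (SE 0.43, adjusted p 0.128) over both.

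The groups of Gbp8 lay close together. It was at 124 and 155 CPM in CD8 WT, 90.9 and 114 CPM in CD8 KO, and 129 and 118 CPM in CD8 KE. In NK cells it was at 57.5 and 107 CPM in WT, 83.8 and 113 CPM in KO, and 109 and 75.5 CPM in KE. Mutant and WT libraries overlapped in both cell types, though both CD8 KO libraries lay below CD8 WT. Its pooled log2 fold change was -0.31 (SE 0.34, adjusted p 0.994) in CD8 T cells and 0.21 (SE 0.35, adjusted p 1) in NK cells, the second of which turned to -0.34 (adjusted p 1) with the marker covariate. Its annotated start nearly coincides with those of Gbp4 and Gbp9, so that 3 genes with neighbouring starts differed in their pooled change from -0.31 to -1.88 in CD8 T cells.

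**Figure D2:**
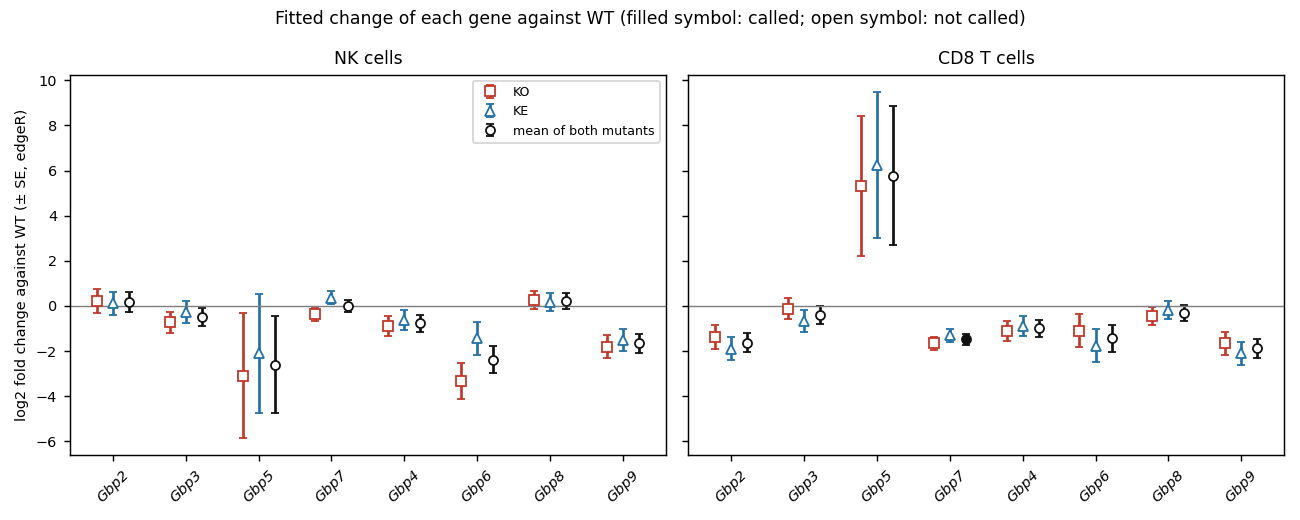
Fitted log2 fold change of each GBP gene against WT with its standard error (edgeR, vertical axis), for KO, for KE and for the mean of both, in NK cells (left) and CD8 T cells (right). The filled symbol, Gbp7 at -1.47 in CD8 T cells, marks the value that passed the threshold, and the bars of Gbp5 span several log2 units.

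Counts of GBP genes are given here beside the share of all genes that met the same rule. For KO against WT in NK cells edgeR called 0 of 8 GBP genes and 0% of all genes, with 2 GBP genes at an unadjusted p under 0.05 (6.33% of all genes). DESeq2, which called more genes than edgeR in each comparison, called 2 there (Gbp6 and Gbp9) and 2.84% of all genes. For KE against WT in NK cells edgeR called 0 of 8 against 0%, with 1 at the unadjusted level (6%) and 0 by DESeq2 (2.94%). For KO against WT in CD8 T cells it called 0 of 8 against 0.0527%, with 4 at the unadjusted level (4.8%) and 1 by DESeq2 (Gbp7, against 1.75%). For KE against WT in CD8 T cells it called 0 of 8 against 0.0829%, with 4 at the unadjusted level (5.57%) and 3 by DESeq2 (Gbp2, Gbp7 and Gbp9, against 2.5%).

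The mutants together gave 0 of 8 calls in NK cells against 0.0301% of all genes, 1 of 8 in CD8 T cells (Gbp7) against 0.211%, and 1 of 8 over both cell types (Gbp9) against 0.407%. The unadjusted p was under 0.05 for 2, 5 and 5 GBP genes, all lower in the mutants, against 8.98%, 6.76% and 9.9% of all genes in either direction. DESeq2 called 2, 3 and 2, against 3.5%, 2.46% and 3.45% of all genes. The median log2 fold change of the 8 genes was -0.63 in NK cells, -1.21 in CD8 T cells and -0.74 over both, against -0.03, 0.00 and -0.03 over all genes tested. All 4 mutant libraries lay below both WT libraries for 3 of 8 GBP genes in NK cells (Gbp5, Gbp6 and Gbp9), against 10.5% of all genes. This was so for 5 of 8 in CD8 T cells (Gbp2, Gbp4, Gbp6, Gbp7 and Gbp9), against 7.49%. For 0 of 8 did all mutant libraries lie above WT, against 7.28% of all genes in NK cells and 6.77% in CD8 T cells. KO and KE share their WT libraries, so the values of both mutants are not independent of each other.

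KO was set beside KE to compare loss of the TYK2 protein with loss of its kinase activity alone. Dependence on the kinase activity itself is read from KE against WT above. By edgeR 0 of 8 GBP genes differed in NK cells, against 0% of all genes, with 2 at an unadjusted p under 0.05 (3.8% of all genes) and 0 called by DESeq2 (1.56%). The same comparison in CD8 T cells gave 0 of 8 against 0%, with 0 at the unadjusted level (3.59%) and 0 by DESeq2 (1.19%). The 2 genes at the unadjusted level in NK cells were Gbp7, with a p of 0.0281, and Gbp6, with a p of 0.0307, both lower in KO. A p that misses the threshold does not show that loss of the protein and loss of its kinase activity act alike.

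The interaction tests gave no call by edgeR. For the KO effect in NK cells minus that in CD8 T cells 0 of 8 genes were called against 0.0151% of all genes, with 1 at an unadjusted p under 0.05 (5.32% of all genes) and 0 by DESeq2 (1.49%). For the KE effect 0 of 8 were called against 0%, with 2 at the unadjusted level (6.18%) and 1 by DESeq2 (Gbp7, against 2.11%). For the mean of both mutants 0 of 8 were called against 0.0151%, with Gbp7 and Gbp2 at the unadjusted level (5.72%) and 1 by DESeq2 (Gbp7, against 2.03%). Gbp7 gave 1.28 (SE 0.41, adjusted p 0.894) for KO and 1.66 (SE 0.41, adjusted p 0.463) for KE.

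Cell types were also compared within a genotype. Between WT NK and WT CD8 T cells edgeR called 0 of 8 GBP genes against 0.783% of all genes, with 1 at an unadjusted p under 0.05 (10.2% of all genes) and 1 by DESeq2 (6.31%), in both cases Gbp5. Its log2 fold change was 8.05 (SE 3.50, adjusted p 0.474), higher in NK cells, and turned to -0.08 with the marker covariate. With CD8 WT 1 at 0 it is no bound, and it lay between 7.08 and 12.59 when single libraries were left out. Between mutant NK and mutant CD8 T cells 2 of 8 were called against 2.75% of all genes. The unadjusted p was under 0.05 for 3 of 8 (15.6% of all genes), and DESeq2 called the same 2 (9.7%). Gbp7 was higher in mutant NK cells (log2 fold change 1.08, SE 0.21, adjusted p 0.0187), at 214 to 461 CPM against 114 to 156 CPM, without overlap. Gbp6 was lower in mutant NK cells (log2 fold change -2.48, SE 0.54, adjusted p 0.0354), at 2.89 to 12.1 CPM against 20.5 to 65.2 CPM, without overlap.

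Both calls were lost on leaving out single libraries. Gbp7 lost its call without any one of 7 libraries, all of them mutant, with a log2 fold change between 0.81 and 1.25 and adjusted p up to 0.0813. Gbp6 lost its call without any one of 9 libraries (log2 fold change between -2.77 and -2.01, adjusted p up to 0.130) and with the marker covariate (-2.48, adjusted p 0.0536).

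**Figure D3:**
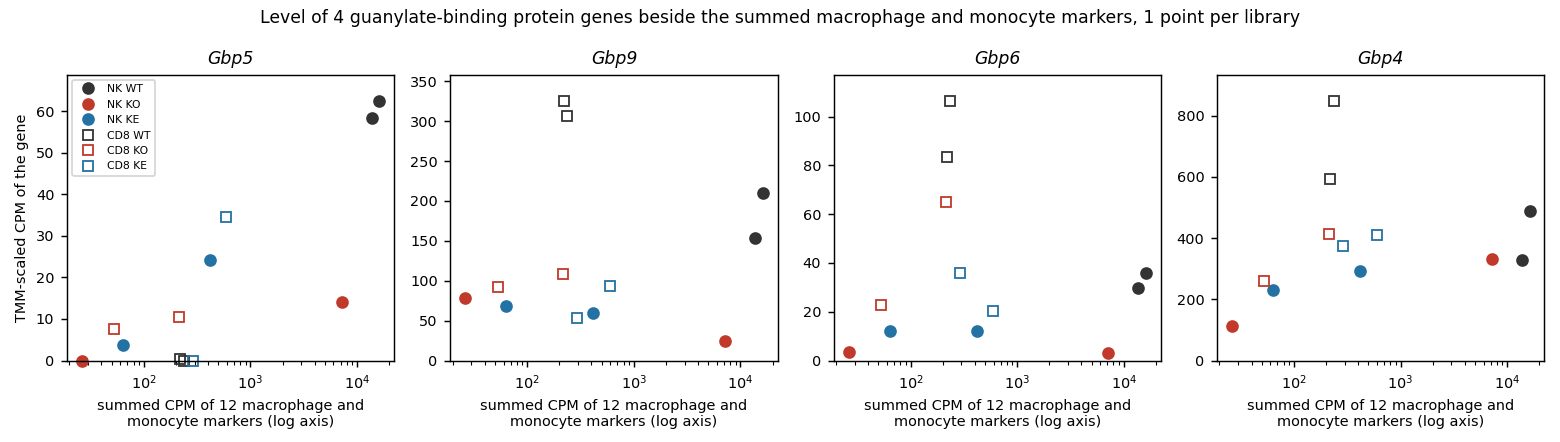
Level of Gbp5, Gbp9, Gbp6 and Gbp4 in TMM-scaled CPM (vertical axis) against the summed CPM of 12 macrophage and monocyte markers (log axis), 1 point per library, with filled circles for NK cells and open squares for CD8 T cells. The 2 NK WT libraries stand at 13703 and 16201 CPM of markers, and NK KO 1, at 7170 CPM, lies above NK KO 2, at 26.2 CPM, in Gbp5 and Gbp4 and below it in Gbp9 and Gbp6.

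Levels of different genes are compared here only as CPM per kb of annotated exon. In WT NK cells the order was Gbp4 (90.1 ± 25.1 CPM per kb, SD, n = 2), Gbp2 (72.5 ± 14.4), Gbp3 (56.2 ± 2.81), Gbp7 (49.6 ± 4.32), Gbp9 (40.9 ± 8.88), Gbp8 (33.5 ± 14.4), Gbp5 (19.8 ± 0.978) and Gbp6 (12.6 ± 1.62). Libraries of Gbp4 and Gbp2, of Gbp7 and Gbp9, and of Gbp9 and Gbp8 overlapped, so these neighbours did not differ beyond their spread. In WT CD8 T cells it was Gbp4 (159 CPM per kb, with libraries at 131 and 187), Gbp2 (136 ± 49.8, SD), Gbp9 (71.2 ± 3.09), Gbp7 (65.0 ± 10.7), Gbp8 (56.7 ± 9.14), Gbp3 (37.3 ± 5.69), Gbp6 (36.5 ± 6.32) and Gbp5 (0.0714 ± 0.101). Libraries overlapped between Gbp4 and Gbp2, Gbp9 and Gbp7, Gbp7 and Gbp8, and Gbp3 and Gbp6.

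The order differed in the mutants. Gbp9 stood at rank 3 in CD8 WT, at rank 5 in CD8 KO (22.6 ± 2.54 CPM per kb) and at rank 6 in CD8 KE (16.5 ± 6.30), below Gbp8 and Gbp3 in both mutants. Its libraries did not overlap those of Gbp8 in either mutant, but they overlapped those of Gbp3 in CD8 KE. Gbp8 stood at rank 5 in CD8 WT, at rank 3 in CD8 KO (41.7 ± 6.70 CPM per kb) and at rank 2 in CD8 KE (50.3 ± 3.23). In CD8 KO its libraries overlapped those of Gbp2 and Gbp3, so these places lie within the spread, and in CD8 KE they overlapped neither neighbour. In NK cells Gbp2 stood above Gbp4 in KO (84.1 ± 39.1 against 49.1 ± 34.1 CPM per kb) and in KE (78.5 ± 30.9 against 57.7 ± 9.48), with overlapping libraries in both. Counting only the exonic bases that no other gene shares raised Gbp6 to 37.4 CPM per kb in NK WT and 108 CPM per kb in CD8 WT, so that its place depends on the length used.

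**Figure D4:**
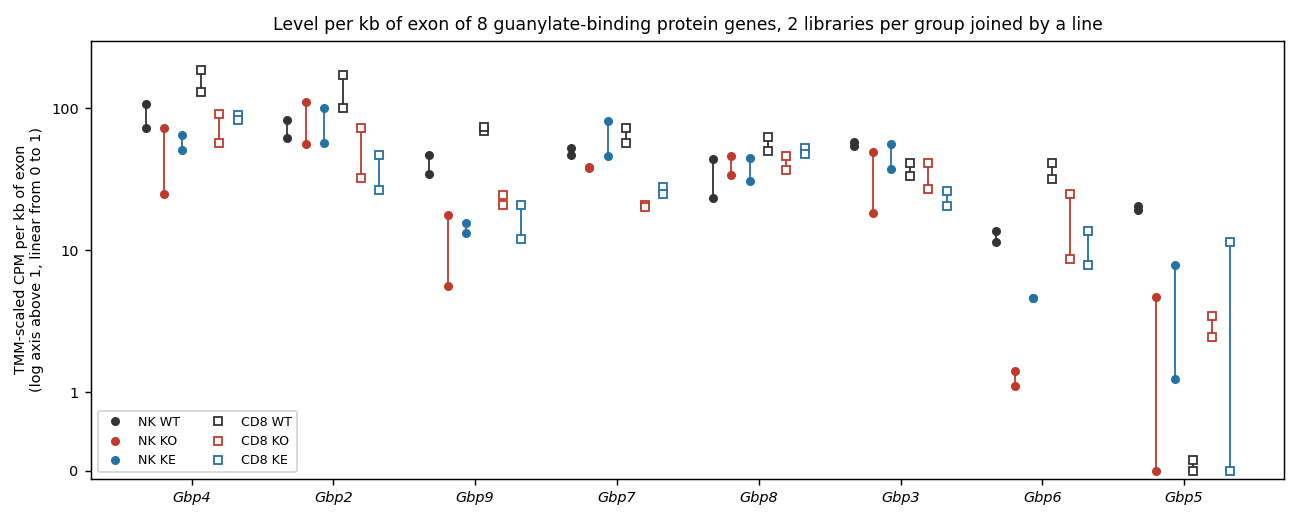
TMM-scaled CPM per kb of exon (log axis above 1, linear from 0 to 1) for the 8 GBP genes, ordered by their level in CD8 WT, with the 2 libraries of each group joined by a line. Gbp4 and Gbp2 lie highest in CD8 WT, at 159 and 136 CPM per kb, and Gbp5 reaches 0 in 3 libraries.

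The members did not vary together across libraries to the same degree. Pearson's r of log2 CPM over the 12 libraries, which share depth scaling and group structure, is given here as a description. After the mean of each cell type was subtracted it was highest for Gbp6 and Gbp9 (0.808), Gbp4 and Gbp6 (0.690) and Gbp2 and Gbp4 (0.679), followed by Gbp7 and Gbp9 (0.629). Gbp8 and Gbp5 stood apart, with r between -0.479 and 0.352 for Gbp8 and between -0.479 and 0.359 for Gbp5 against the other members.

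Among all other tested genes, likeness to the family was measured as Pearson's r over the 12 libraries with the mean z-score of the 8 members. The most alike were Xaf1 (r 0.920), Ifi35 (0.903), 9330175E14Rik (0.896), Ifi209 (0.887), B2m (0.878), Ifi206 (0.876), Mndal (0.854), Trim30a (0.852) and Usp39 (0.851). After the mean of each cell type was subtracted they were Ifi209 (0.951), Cmpk2 (0.945), Trim30a (0.933), Gm45715 (0.931), 3110082I17Rik (0.927), Etv5 (0.926), Ifi35 (0.921), Xaf1 (0.917), Itgam (0.898) and 9330175E14Rik (0.888). Itgam is one of the 12 macrophage and monocyte markers. Of these genes, 5 stood in both orders.

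Other parts of the interferon pathway were counted for the mutants against WT over both cell types, where 0.407% of all genes were called. Of 17 genes of interferon signalling (receptors, kinases, transcription factors and feedback regulators), 2 were called, both lower, with 7 at an unadjusted p under 0.05 and 3 called by DESeq2. Irf7, a transcription factor that amplifies interferon responses, fell by 2.44 on the log2 scale (SE 0.38, adjusted p 0.0259), from 603 and 451 CPM in NK WT to at most 150 CPM in mutant NK cells and from 305 and 300 CPM in CD8 WT to at most 100.3 CPM in mutant CD8 T cells. Usp18, a feedback inhibitor of the type I interferon receptor, fell by 4.69 (SE 0.76, adjusted p 0.0328). Both calls were lost with the marker covariate (-2.20, SE 0.66, adjusted p 0.760 for Irf7 and -6.34, SE 1.32, adjusted p 0.407 for Usp18), with a larger standard error for each. On leaving out single libraries Irf7 kept its call without NK KO 1, CD8 KO 1, CD8 KE 1 or CD8 KE 2 and lost it without any of the other 8 (adjusted p up to 0.123), and Usp18 kept it without NK KO 1 or CD8 KE 1 and lost it without any of the other 10 (up to 0.147). The median of the 17 was -0.25. Irf1, a transcription factor that induces GBP genes and was chosen after its values were seen, gave -0.25 (SE 0.24, adjusted p 0.904), with 214 to 516 CPM in WT and 206 to 449 CPM in mutant libraries.

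Of 7 tested interferon-inducible GTPases that act with GBPs, 2 were called, both lower, 5 had an unadjusted p under 0.05, DESeq2 called 2, and 6 had a negative fitted change, with a median of -1.23. Irgm1, which controls how these GTPases choose their target membranes, fell by 1.42 (SE 0.22, adjusted p 0.0259), from 214 and 485 CPM in NK WT to 113 to 172 CPM and from 488 and 298 CPM in CD8 WT to 86.7 to 217 CPM. Iigp1, an effector that disrupts parasite vacuoles, was called (adjusted p 0.0237) with 148, 1143, 1063 and 45 counts in the 4 WT libraries and 0 to 3 counts in each of the 8 mutant libraries. Its fitted change depends on the prior count and is not given. Both calls were lost with the marker covariate (adjusted p 0.569 for Irgm1 and 0.740 for Iigp1), while the log2 fold change of Irgm1 was -1.43 there. Irgm1 kept its call without NK WT 1, NK KO 1 or CD8 WT 2 and lost it without any of the other 9 libraries (adjusted p up to 0.162), and Iigp1 kept it without CD8 WT 2 or CD8 KE 1 and lost it without any of the other 10 (up to 0.147).

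Of 8 inflammasome genes 0 were called by edgeR over both cell types, with 2 at an unadjusted p under 0.05, 1 called by DESeq2, a median of -0.66 and a smallest adjusted p of 0.0679, that of Casp4 (-2.62, SE 0.51), which encodes the caspase that senses cytosolic lipopolysaccharide. Casp4 lay at 77.7 to 96.9 CPM in the 4 WT libraries and at 3.58 to 32.8 CPM in the 8 mutant libraries, without overlap, and it was called without CD8 KO 2 (adjusted p 0.0291). Gsdmd, which encodes gasdermin D, gave -1.24 (SE 0.55, adjusted p 0.492) and was called without CD8 KE 2 (-2.14, adjusted p 0.00825), Il18 was at or below 9.84 CPM in all libraries, and Nlrp3 was above 3 counts only in the 2 NK WT libraries (267 and 40 counts). Of 11 genes for prenylation and for ATG8 conjugation, which place GBPs on membranes, edgeR called 0, with 0 at an unadjusted p under 0.05 and 0 called by DESeq2, 6 had a negative fitted change and the median was -0.01. The largest fitted changes there were those of Icmt (1.07, SE 1.64), Pggt1b (-0.69, SE 0.62), Atg12 (-0.52, SE 0.27) and Rce1 (-0.40, SE 0.43).

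Genes that lean on type I interferon and genes that lean on interferon gamma were set beside the GBP genes. Of 12 genes of the first kind 3 were called and lower, namely Usp18, Ifit2 (-3.09, SE 0.51, adjusted p 0.0333), which restrains translation, and Oasl2 (-5.41, SE 0.57, adjusted p 0.00382), with 11 of 12 at an unadjusted p under 0.05 and 10 called by DESeq2. All 12 had a negative fitted change and the median was -5.06. Single fits in this list were wide, such as Oas2 (-10.84, SE 2.86) and Oas1a (-9.53, SE 2.02) in NK cells, so the size of the median is uncertain. With the marker covariate all 3 calls were lost (adjusted p 0.407, 0.781 and 0.366), at log2 fold changes of -6.34 for Usp18, -2.09 for Ifit2 and -5.37 for Oasl2. Without single libraries Oasl2 kept its call in 12 of 12 omissions, and Ifit2 kept it only without NK KO 1 (adjusted p up to 0.188). Of 12 tested genes of the second kind edgeR called 0, with 3 at an unadjusted p under 0.05 and 1 called by DESeq2, 11 had a negative fitted change, the median was -1.03 and the smallest adjusted p was 0.144. Examples of the second kind are Cd274, which encodes the checkpoint ligand PD-L1 (-1.34, SE 0.31, adjusted p 0.144), and the antigen presentation regulator Ciita (-4.07, SE 1.66, adjusted p 0.449). The chemokine genes Cxcl10 (-3.99, SE 1.24, adjusted p 0.292) and Cxcl9 (-2.02, SE 1.85, adjusted p 0.889) varied widely, and single libraries were at 0. Cxcl10 lay between -5.93 (without NK KO 1) and -0.87 (without CD8 WT 2) when single libraries were left out. With the marker covariate Ciita gave -1.31 and Cxcl10 -0.93 (adjusted p 1 for both). The type I list had the lowest median throughout. Which of the GBP genes and the interferon gamma list came lower depended on the cell type and the fit. In NK cells the median was -0.63 for the GBP genes, -4.89 for the type I list and -1.20 for the interferon gamma list, and in CD8 T cells it was -1.21, -3.86 and -0.30. Over both cell types it was -0.74 for the GBP genes, and with the marker covariate it was -0.28, -3.69 and -0.0035. In NK cells the 12 macrophage and monocyte markers had a median of -4.67, with 0 called. The difference between these lists was not tested.

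**Figure D5:**
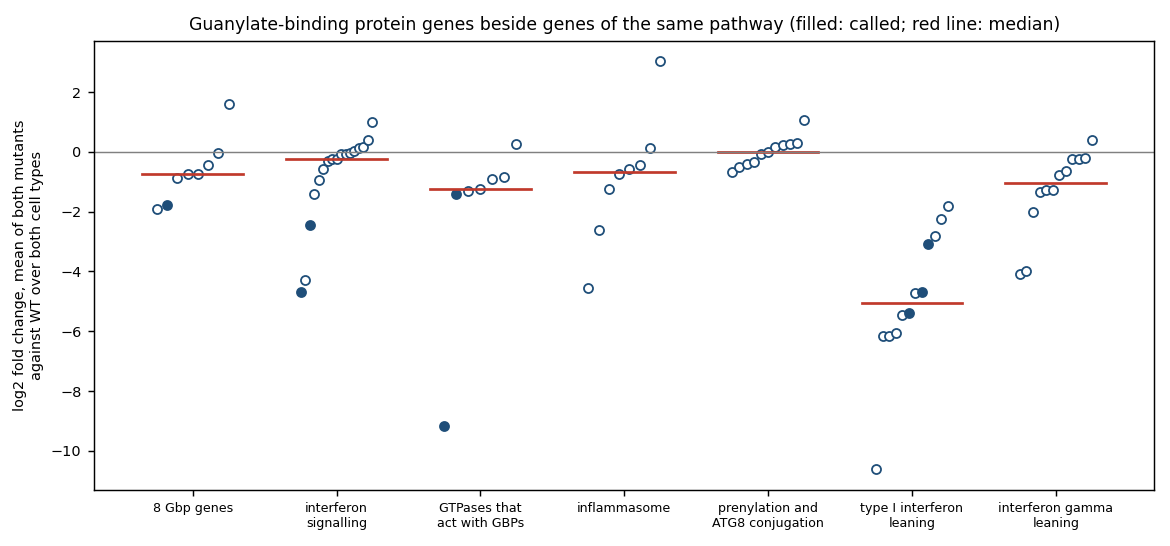
Fitted log2 fold change of the mean of both mutants against WT over both cell types (vertical axis) for each gene of 7 lists, with filled points for called genes and a red line at the list's median. Fitted values of genes with groups at 0, such as Iigp1, depend on the prior count. The 8 GBP genes have their median at -0.74, the genes that lean on type I interferon at -5.06 and those for prenylation and ATG8 conjugation at -0.01.

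Of the other genes of the family, 2 were tested. Gbp10 was at 42.5 and 42.2 CPM in NK WT, at most 5.77 CPM in mutant NK cells, 77.5 and 16.9 CPM in CD8 WT and 3.34 to 23.3 CPM in mutant CD8 T cells, where 1 KO library exceeded 1 WT library. It was not called over both cell types by edgeR (-4.68, SE 0.97, adjusted p 0.0936), was called by DESeq2, and was at -2.27 (adjusted p 1) with the marker covariate. Gbp11 had 165 counts in NK WT 1 and at most 4 counts in each other library. Gbp2b had 103 counts in NK WT 2 and 0 in the other 11 libraries, and it did not pass the filter on low counts.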

How the data were processed

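RNA of 12 libraries (2 per group) was read as single-end reads of 50 bases. Per the study's methods, the authors trimmed reads with Trimmomatic (version 0.32), aligned them to GRCm38 with STAR (2.7.1) and counted uniquely aligned reads in exons of Ensembl release 93 with GenomicAlignments (1.6.3). The deposited values are these raw counts per gene, and the strand setting of the counting is not given in the sources used here. Counts were tested in R 4.3.3 with edgeR 4.0.16 (robust quasi-likelihood F-test, TMM, 1 mean per group over all 12 libraries) on the 13275 genes whose mean normalized count reached 10, with Benjamini-Hochberg adjustment over these genes. DESeq2 1.42.0 (13129 genes) was an alternative, with other scalings, filters, fits and the omission of each library. The scripts were tested on simulated data, where DESeq2 made many more false calls than edgeR, so its counts stand only as an alternative. On the same data edgeR missed most of the genes made to differ and found fewer of them than DESeq2. A gene that edgeR did not call may therefore still differ. Members, lists and the rule for naming genes (every called gene of a list, otherwise the 4 largest changes, and the 10 genes most alike) were chosen with earlier results of these data known. The pooled interaction was added after seeing the data. One of the 10 most alike genes is not reported here.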

Additional observations from a re-analysis of the deposited data

How the results depend on the processing

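Leaving out libraries and changing the fit moved the number of GBP genes called, while RLE scaling gave the same side of the threshold and direction for each of the 72 log2 fold changes recomputed. DESeq2 called 2 in KO and in both mutants of NK cells, 1 in KO, 3 in KE and 3 in both mutants of CD8 T cells, 2 over both cell types, 1 in the KE and in the pooled interaction, and 1 between WT cell types. With no filter on low counts edgeR called 1 for KO and 1 for both mutants in NK cells. In CD8 T cells it called 1, 2 and 3 for KO, KE and both, and it called 1 in each comparison of cell types. Calls among all genes rose as well under this setting. Pooled mutants against WT in NK cells gave 374 calls among 23707 genes, where the main fit gave 4 among 13275. The same contrast for CD8 T cells gave 209, where the main fit gave 28. For both mutants in CD8 T cells, filterByExpr, a fit of each cell type alone, the replicate block and the marker covariate each called 0. The last 2 also called 0 over both cell types and 1 between mutant cell types. Without 1 library the number ranged from 0 to 1 for mutant CD8 T cells, 0 to 2 over both cell types and 0 to 2 between mutant cell types.

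With the macrophage and monocyte markers as a covariate, log2 fold changes changed sign for Gbp4 in NK cells (0.18 for KO, 0.82 for KE, 0.50 for both), Gbp5 (0.91, 6.45 and 3.68), Gbp3 and Gbp8 for both mutants (0.16 and -0.34), Gbp9 in the pooled interaction (-0.96), Gbp5 between WT cell types (-0.076), and over both cell types Tyk2 (-0.30), Irf1 (0.039), Rce1 (0.13) and Cxcl9 (2.80). Without 1 library, signs changed for Gbp7 in NK KE (-0.15 to 0.72), Gbp2 in NK KO (-0.38 to 0.62) and NK KE (-0.36 to 0.44), Gbp5 in CD8 KE (-4.56 to 10.78), and for both mutants in NK cells Gbp2 (-0.14 to 0.37), Gbp7 (-0.26 to 0.17) and Gbp8 (-0.18 to 0.71), as well as Gbp9 in the pooled interaction (-0.32 to 0.51) and, over both cell types, Tyk2 (-0.021 to 0.40), Irf1 (-0.46 to 0.045), Icmt (-1.41 to 3.94), Rce1 (-0.75 to 0.29), Ciita (-5.89 to 0.84) and Cxcl9 (-4.78 to 2.57). The cause was not tested.

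Replicate numbers did not pair the libraries (correlation of same-numbered deviations -0.0255 to 0.0380). Under the replicate block Gbp7 in mutant CD8 T cells had an adjusted p of 0.0589 (log2 fold change -1.46), Gbp9 over both cell types 0.0750 (-1.77) and Gbp6 between mutant cell types 0.0639 (-2.47), and over both cell types Usp18 had 0.0750 (-4.73), Ifit2 0.0756 (-3.08), Irgm1 0.0690 (-1.42) and Iigp1 0.0586. Precision is limited by 2 libraries per group and a common biological coefficient of variation of 109%.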
